A study of Mus musculus with 4 samples.

Results

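The 10 genes described here encode proteins that neutrophils store in their granules and receptors that they carry on their surface. They were taken by name, with earlier results of these data known, so shares of all genes given beside them describe and do not test. All 10 had a row among the 23366 gene symbols of the deposited read counts. Counts came from medullary thymic epithelial cells (mTECs) of wild-type C57BL/6 mice aged 6 to 8 weeks, in 2 pools from females and 2 pools from males, with 10 mice per pool and no treatment in the labels. The cells had been sorted as live, MHCII-positive and low for Ly51, and as negative for CD45, a protein of the surface of nearly all leukocytes. The female pools had 3508921 and 1976272 reads on genes, and the male pools 7103627 and 3344471 (pools 1 and 2 in this order, here and below). Because each pool mixes animals, the spread below is that between pools and not between mice.

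Neutrophils arise in the bone marrow, and their granules are filled in sequence as the cells mature. Promyelocytes make the proteins of primary (azurophil) granules, myelocytes and metamyelocytes those of secondary (specific) granules, and the last granule genes are switched on shortly before the nucleus becomes segmented. The receptor for granulocyte colony-stimulating factor is present from progenitors onwards, and the chemokine receptor Cxcr2 marks mature cells, in which primary and secondary granule proteins persist but their transcripts have declined. Members were grouped in this order: 2 primary granule genes (Elane and Mpo), 4 secondary granule genes (Ngp, Camp, Ltf and Lcn2), 2 late granule genes (Mmp8 and Retnlg) and 2 receptors (Csf3r and Cxcr2).

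Transcripts that define both epithelium and blood cells were present. All 9 genes of a list for medullary thymic epithelium had counts in every pool, among them the epithelial adhesion molecule Epcam at 37.0 and 42.6 normalized CPM in female pools against 44.0 and 51.6 in male pools. Normalized CPM express counts relative to the size of each library, corrected for its composition by TMM factors. Ptprc, which encodes CD45, had 280 and 180 in female pools against 304 and 219 in male pools. The sex labels were matched by Ddx3y on the Y chromosome, which was at 0 counts in females and at 53.2 and 34.3 normalized CPM in males, and by Xist, at 94.9 and 54.9 against 0.836 and 6.93. Xist was not absent from male pool 2, which had 18 reads against 7 in male pool 1, and their origin was not tested.

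Stretches of granule gene promoters are shown because several primary and secondary granule genes held different short motifs of factors that act during granulocyte development. The motifs were chosen after the values of the members were seen. C/EBP factors, among them C/EBP epsilon, drive secondary granule genes, and PU.1 acts in earlier myeloid cells. The stretches below come from RefSeq windows on GRCm38.p6, which is a later assembly than the one used for counting, and each lies before the annotated start and is read along the gene's strand (minus for Lcn2, plus for the other genes shown). Capitals mark the match to GAGGAAGT (PU.1) in Elane and Mpo and to TTGCNNAA (C/EBP), or its reverse complement, in the other genes.
Elane, chr10:79886201-79886260: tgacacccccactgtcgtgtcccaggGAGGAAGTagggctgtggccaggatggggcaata
Mpo, chr11:87793534-87793593: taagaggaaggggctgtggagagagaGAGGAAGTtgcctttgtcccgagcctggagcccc
Ngp, chr9:110419644-110419703: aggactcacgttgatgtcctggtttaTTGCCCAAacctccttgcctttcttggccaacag
Ltf, chr9:111019191-111019250: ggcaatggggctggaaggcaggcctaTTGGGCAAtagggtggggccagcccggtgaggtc
Lcn2, chr2:32387922-32387981: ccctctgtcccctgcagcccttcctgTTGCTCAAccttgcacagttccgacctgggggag

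All 10 members had such a window, and the 250 bases before the start were searched on both strands. TTGCNNAA was found in 5 members (Ngp, Ltf, Lcn2, Mmp8 and Retnlg), and in 10.8% of the 27025 genes with a window. GAGGAAGT was found in 3 members (Elane, Mpo and Mmp8), and in 2.79% of genes. Neither was found in the windows of Camp, Csf3r and Cxcr2. Of the 3 other forms searched, TTNNGCAAT was found in 2 members (Ngp and Ltf) and in 2.24% of genes. The shorter GAGGAA, which lies within GAGGAAGT, was found in 7 members, both receptors among them, and in 25.9% of genes. A GATA motif, AGATAA, was found in 1 member (Ltf) and in 11.4% of genes. A match describes the letters of the window and is not evidence of binding.

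Primary granule genes were low, and of the 2 only Elane differed between pools by more than counting error. Elane encodes neutrophil elastase, a serine protease, and lies on chromosome 10 of NCBIM37 (79349057 to 79350961, plus strand), the assembly also called mm9. It had 1 and 0 counts in females against 33 and 0 in males. Male pool 1 thus held nearly all Elane reads, at 3.94 normalized CPM, whereas the other pools were at or under the 3 counts that a count of 0 allows. That limit was 0.815 and 1.48 normalized CPM in female pools against 0.358 and 1.16 in male pools, and covers counting error only.

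Mpo encodes myeloperoxidase, which forms hypochlorous acid in the phagosome. It had 23 and 13 counts in female pools against 62 and 9 in male pools, which is 6.25 and 6.43 normalized CPM in females against 7.41 and 3.47 in males. Male pool 1 was highest and male pool 2 lowest, but the 95% Poisson intervals of all 4 pools overlapped (5.68 to 9.50 and 1.58 to 6.58 in those 2 pools). Exons of Mpo share 512 bases with those of another annotated gene, Gm11505, so its counts are uncertain there. Elane made up 34.7% of the reads on Elane and Mpo together in male pool 1 (exact 95% binomial interval 25.3 to 45.2, 95 reads). In female pool 1 it made up 4.17% (0.105 to 21.1, 24 reads). Female pool 2 had 0 of 13 reads and male pool 2 had 0 of 9, whose intervals reach 24.7% and 33.6%, so the interval of male pool 1 lay above those of both female pools, that of female pool 2 by a narrow margin, and overlapped that of male pool 2.

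Secondary granule genes held most granule reads. Ngp encodes neutrophilic granule protein, a relative of the cathelicidins and cystatins, and lies on chromosome 9 (110322254 to 110325514, plus strand). It had 47 and 5 counts in female pools against 340 and 23 in male pools, equal to 12.8 and 2.47 normalized CPM in females against 40.6 and 8.86 in males. Male pool 1 was highest, but male pool 2 lay below female pool 1, so the sexes overlapped. Within each sex, pool 1 was higher than pool 2.

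Camp encodes the cathelicidin precursor of an antimicrobial peptide and also lies on chromosome 9 (109749889 to 109751970, minus strand). It had 14 and 5 counts in female pools against 103 and 37 in male pools, equal to 3.81 and 2.47 normalized CPM in females against 12.3 and 14.2 in males. Unlike Ngp, it was at like levels in the male pools, whose Poisson intervals overlapped (10.0 to 14.9 and 10.0 to 19.6), and both were above both female pools. Which male pool was higher turned with the scaling, since by library size only Camp had 14.5 CPM in male pool 1 and 11.1 in male pool 2. Ngp made up 77.0% (64.5 to 86.8) of the reads on Ngp and Camp in female pool 1 and 76.7% (72.5 to 80.6) in male pool 1. In female pool 2 it was 5 of 10 reads (18.7% to 81.3%), and it was 38.3% (26.1 to 51.8) in male pool 2, from 60 reads. The interval of male pool 2 overlapped neither that of female pool 1 nor that of male pool 1, so the balance of these genes differed between libraries by more than counting error.

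Ltf encodes lactoferrin, which binds iron (chromosome 9, 110921796 to 110945270, plus strand). It had 6.52 and 5.94 normalized CPM in female pools against 19.5 and 5.78 in male pools, from 24, 12, 163 and 15 counts. Only male pool 1 stood apart, and male pool 2 was the lowest of all. Lcn2 encodes lipocalin 2, which binds bacterial siderophores and is also made by epithelia and macrophages (chromosome 2, 32240153 to 32243317, minus strand). It had 1.63 and 4.45 normalized CPM in female pools against 14.7 and 10.0 in male pools, from 6, 9, 123 and 26 counts. Both male values were above both female values, but the Poisson intervals of female pool 2 (2.04 to 8.45) and male pool 2 (6.54 to 14.7) overlapped.

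The late granule genes were close to the limit of a count of 0 outside male pool 1. Mmp8, which encodes neutrophil collagenase, had 12 counts in male pool 1 and 0 counts in the other pools. Retnlg, which encodes resistin-like gamma and is expressed by maturing mouse neutrophils, had 2 and 1 counts in female pools against 53 and 3 in male pools, equal to 6.33 normalized CPM in male pool 1 and at most 1.16 elsewhere. No fold is given for these genes or for Elane, since they did not pass the filter on low counts.

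Both receptors peaked in male pool 2, whereas 7 of the 8 granule genes peaked in male pool 1. Cxcr2, the receptor for CXCL1, CXCL2 and related chemokines that draw neutrophils out of the marrow and into tissue, lies on chromosome 1 (74200563 to 74207812, plus strand). It had 162 and 105 counts in female pools against 289 and 461 in male pools, equal to 44.0 and 52.0 normalized CPM in females against 34.5 and 178 in males. Male pool 2 was highest and male pool 1 lowest of the 4 pools. Csf3r, the receptor for granulocyte colony-stimulating factor (chromosome 4, 125701794 to 125722219, plus strand), had 18 and 15 counts in female pools against 55 and 38 in male pools, equal to 4.89 and 7.42 normalized CPM in females against 6.57 and 14.6 in males. Male pool 2 was again highest, but its Poisson interval (10.4 to 20.1) overlapped that of female pool 2 (4.15 to 12.2), and those of the remaining pools overlapped one another. Csf3r made up 7.62% of receptor reads in male pool 2 (5.45 to 10.3) and 15.99% in male pool 1 (12.3 to 20.3), with 10.0% and 12.5% in the female pools, so Cxcr2 carried most of the receptor signal in every pool.

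**Figure D1:**
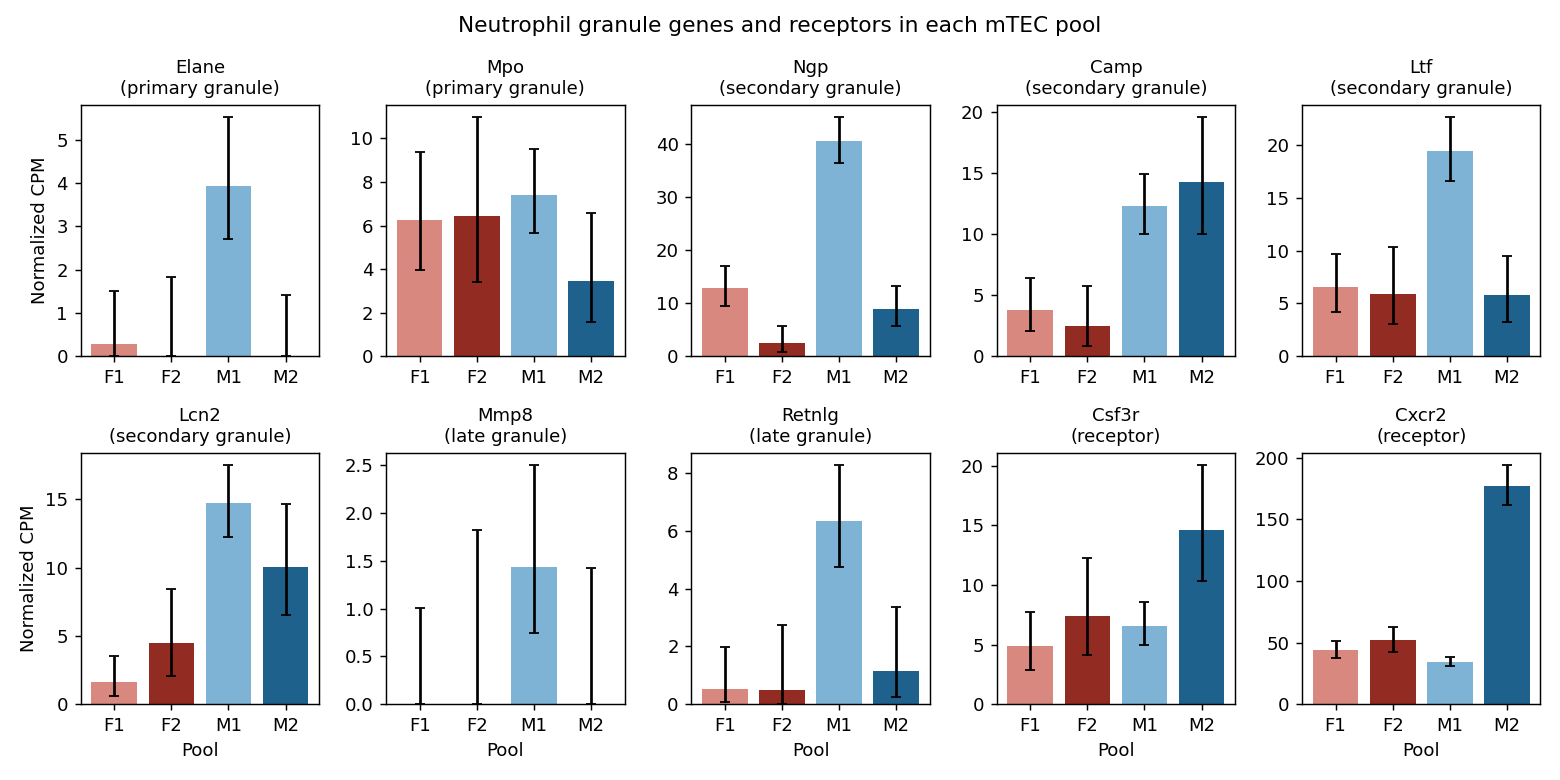
Normalized CPM (bars, linear axes from 0 that differ between panels) of each member in female pools 1 and 2 (F1, F2) and male pools 1 and 2 (M1, M2), with 95% Poisson intervals of the counts. Granule genes other than Camp were highest in male pool 1, and both receptors were highest in male pool 2. Camp was also highest in male pool 1 by library size only (14.5 against 11.1 CPM).

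The pools were then compared by which of them was highest. Male pool 1 was the highest pool for 7 of 8 granule genes, the exception being Camp, and for 0 of 2 receptors. Among the 10865 genes tested, it was the highest for 26.1%, and among the 5 granule genes tested, for 4. Elane, Mmp8 and Retnlg were not among the genes tested. Male pool 2 was the highest for both receptors and for Camp, against 32.7% of genes tested. These shares depended on the TMM factors. By library size only, male pool 1 was the highest for 8 of 8 granule genes against 47.2% of genes tested, and male pool 2 for both receptors against 16.2%. Because male pool 1 was also the most deeply sequenced library, genes with few reads could be detected there at levels that the other pools could not show. For Mmp8, the 1.43 normalized CPM of male pool 1 was below the limit of a count of 0 in female pool 2 and above it in the other 2 pools without counts.

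Levels were compared between genes per kilobase of exon, as normalized CPM per kilobase (mean ± SD, n = 4 pools). Cxcr2 had the highest mean, 25.3 ± 22.2, followed by Camp at 13.7 ± 9.87 and Ngp at 13.3 ± 13.8. Retnlg (3.51 ± 4.63), Ltf (3.44 ± 2.45), Lcn2 (3.34 ± 2.53), Csf3r (2.02 ± 1.04) and Mpo (1.72 ± 0.495) formed a lower group, and Elane (1.15 ± 2.10) and Mmp8 (0.146 ± 0.292) were lowest. In this order, neighbours differed by less than the SD of their log2 difference over the pools, with exceptions at 2 steps. Ngp was above Retnlg in 4 of 4 pools, by 1.88 ± 0.99 on the log2 scale. The step from Elane to Mmp8 rests on 0.5 counts added to each gene, since in 3 pools neither had more than 1 read. The order also changed with the pool. In male pool 1, Ngp reached 33.4 normalized CPM per kilobase and Camp 20.5, both above Cxcr2 at 11.4, whereas in male pool 2 Cxcr2 reached 58.4, above Camp at 23.7 and Ngp at 7.28.

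The balance between granule genes and receptors was measured within each pool, where it does not depend on library size. These sets are not strictly immature and mature, since Csf3r is also present in progenitors and the late granule genes come on in maturing cells. Of the reads on the 10 members, granule genes held 39.4% in female pool 1 (exact 95% binomial interval 33.8 to 45.2, 297 reads) and 27.3% in female pool 2 (20.6 to 34.7, 165 reads). They held 72.1% in male pool 1 (69.5 to 74.6, 1233 reads) and 18.5% in male pool 2 (15.5 to 21.8, 612 reads). The male pools were thus the highest and the lowest of all, with the female pools between them. The interval of male pool 1 was apart from all others, and those of female pool 2 and male pool 2 overlapped slightly. Summed normalized CPM of the granule genes ran 31.8 and 22.3 in female pools against 106 and 43.5 in male pools, and that of the receptors 48.9 and 59.4 in females against 41.1 and 192 in males. The granule sum was highest in male pool 1, whereas receptor transcript was lowest there and highest in male pool 2. The gap between male pool 2 and female pool 1 in the granule sum came mostly from the TMM factors (0.780 and 1.05), since the granule genes held 113 of 3344471 reads on genes in the former and 117 of 3508921 in the latter, which are nearly equal shares. Mpo, Ngp and Ltf were lower in male pool 2 than in female pool 1, and Camp and Lcn2 were higher. Elane (1 count in female pool 1 and 0 in male pool 2) and Retnlg (2 and 3) had too few counts to be ordered.

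With reads scaled per kilobase, the log2 ratio of granule genes to receptors was 0.60 and -0.38 in females, against 2.71 and -0.57 in males. The mean was 0.11 ± 0.69 for females and 1.07 ± 2.33 for males (SD over 2 pools per sex). The male minus female difference of 0.96 was smaller than the spread between the male pools (exact permutation test over pools, two-sided, p = 1). With 2 pools against 2, the smallest p that this test allows is 0.333. Between the pools numbered 1 the difference was 2.12, and between the pools numbered 2 it was -0.19. Without male pool 1, the difference was -0.68, and without male pool 2 it was 2.61, so its direction rested on male pool 1. With only the primary granule genes, Elane and Mpo, over the receptors, it was -0.36.

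**Figure D2:**
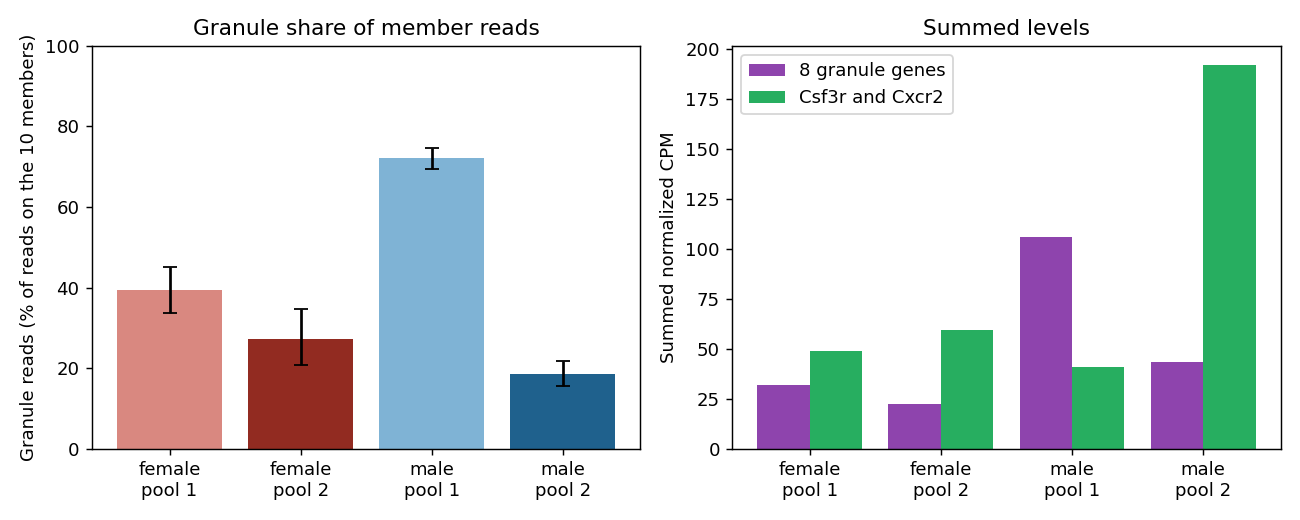
Left, reads on the 8 granule genes as a percentage of reads on all 10 members in each pool, with exact 95% binomial intervals. Right, summed normalized CPM of the granule genes and of the receptors. The granule share was 72.1% in male pool 1 and 18.5% in male pool 2, and the female pools lay between them.

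Males were compared with females over the whole table by edgeR's quasi-likelihood test, which 7 of the 10 members entered. After Benjamini-Hochberg adjustment over 10865 genes, 0 of these 7 members passed 0.05, as did 0% of all genes tested. At an unadjusted p under 0.05 there were 2 members, Camp and Lcn2, against 0.442% of genes tested. With other tests of the same comparison, 0 members were called by edgeR's exact test, which called 0.0736% of genes, and 0 by DESeq2, which called 0.0276%. Both male pools lay above both female pools for 3 members of 10 (Camp, Lcn2 and Retnlg), and for 9.47% of the genes tested. Retnlg was not tested, so that 2 of the 7 members tested stand beside that share. By library size only, Csf3r joined these 3 members, and the share of genes tested was 6.11%.

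The means of Camp were 3.14 ± 0.941 normalized CPM for females and 13.3 ± 1.37 for males (SD, n = 2 pools per sex), with a log2 difference of 2.02 (standard error 0.47, adjusted p = 1 by edgeR's quasi-likelihood test). Those of Lcn2 were 3.04 ± 1.996 and 12.4 ± 3.31, with a log2 difference of 2.13 (standard error 0.60). The log2 fold changes of Ngp (1.65, standard error 0.86), Ltf (1.06, 0.62), Csf3r (0.76, 0.56), Cxcr2 (1.13, 0.70) and Mpo (-0.16, 0.54) were less than 2 standard errors from 0, and for each of these 5 genes the pools of the sexes overlapped. Over the 5 granule genes that were tested, the median log2 fold change was 1.65, and over all genes tested it was 0.027. Without male pool 1, the values of these 5 genes were -0.87 (Mpo), -0.13 (Ltf), 0.084 (Ngp), 1.82 (Lcn2) and 2.10 (Camp). The middle value was then 0.084. A gene enters the test more easily when it is high in a group, so these 5 do not stand for all 8.

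Leaving out a male pool changed which members were called. Without male pool 2, Ngp, Ltf and Lcn2 passed (3 members, and 0.613% of 11422 genes), with log2 fold changes of 2.28, 1.64 and 2.41 (adjusted p = 1.2e-06, 0.0377 and 0.0033 by edgeR's quasi-likelihood test). Without male pool 1, Camp and Cxcr2 passed (2 members, and 5.72% of 11292 genes), with log2 fold changes of 2.10 and 1.88 (adjusted p = 0.0167 and 0.000229 by the same test). In these fits the single male pool is assumed to vary as the female pools do. The log2 fold change of Ltf was -0.13 and that of Ngp 0.084 without male pool 1, and that of Cxcr2 was -0.46 without male pool 2. Camp stayed between 1.81 and 2.40 and Lcn2 between 1.48 and 2.93 whichever pool was left out.

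**Figure D3:**
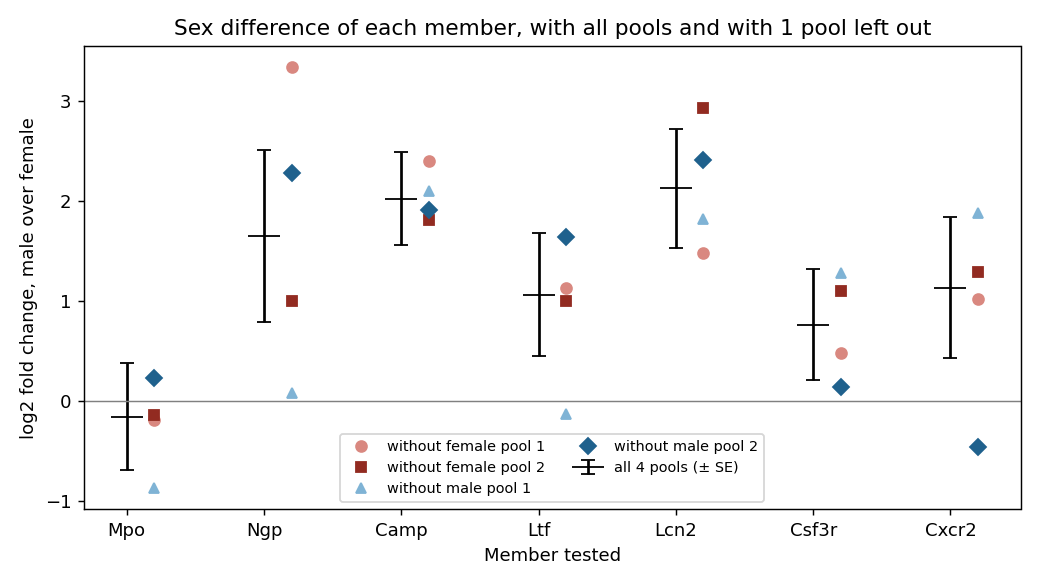
Log2 fold change of male over female for the 7 members tested, with all 4 pools (dash ± standard error of edgeR's quasi-likelihood test) and with each pool left out (coloured symbols). Ngp, Camp, Lcn2 and Csf3r kept their direction in these fits, though Ngp was as low as 0.084 and Csf3r as low as 0.14, while Ltf turned negative without male pool 1, and Cxcr2 turned negative and Mpo positive without male pool 2.

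A wider list of 33 neutrophil genes was described beside the members, of which 31 had a row, 19 were tested and 0 passed an adjusted p of 0.05 by the quasi-likelihood test. Of the tested genes, 11 had a positive and 8 a negative log2 fold change, with a median of 0.083. The cytosolic proteins S100a8 and S100a9, which form calprotectin, were the 2 of these with an unadjusted p under 0.05. S100a9 had 22.8 and 19.3 normalized CPM in female pools against 81.5 and 97.4 in male pools, and S100a8 had 19.0 and 24.7 in females against 65.8 and 108 in males. Both male values were above both female values for each, as with Camp and Lcn2. That order held for 6 of the 31 genes with a row, against 9.47% of genes tested. Some of the 6, Prtn3 and Ctsg among them, were not tested, so that share does not cover them. The reverse order held for 2, Ctsc and Adam8, against 1272 of the 10865 genes tested. S100a8 was highest in male pool 2 with either scaling, whereas S100a9 had 96.0 CPM in male pool 1 and 75.6 in male pool 2 by library size only. Anxa1, the most abundant of its group, ran 101 and 131 in females against 100 and 129 in males.

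Of 5 other genes of the primary granule, 3 were highest in male pool 1, against 26.1% of genes tested. The other 2 were highest in female pool 2, against 2169 of the 10865 genes tested. Of those 3, Prtn3 and Ctsg were not tested, so only Prss57 stands beside the share for male pool 1. Prss57, which encodes a serine protease, had 4.35 and 6.43 normalized CPM in females against 11.6 and 4.62 in males, with its peak in male pool 1. Ctsc, which activates granule proteases and is expressed by many leukocytes, ran 400, 433, 344 and 344 in the order female pools 1 and 2, then male pools 1 and 2, and Serpinb1a, an elastase inhibitor, 57.4, 91.1, 61.2 and 82.8. Chosen after their values were seen, the serine protease genes Prtn3 and Ctsg had at most 10 and 6 counts in a pool. Their highest levels, 1.19 and 0.717 normalized CPM in male pool 1, were below the limit of a count of 0 in female pool 2, and the Poisson intervals of all pools overlapped.

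Among the remaining secondary granule genes, Chi3l3, a chitinase-like protein, had 5.71 and 1.48 normalized CPM in females against 10.5 and 3.85 in males. Its pool 1 exceeded its pool 2 in either sex, like Ngp, and so did those of Cd177 and Itgb2l, genes with at most 26 and 8 counts in any pool. The same order of pools within either sex held for 35.0% of all genes tested. The late granule and secretory genes Adam8 (276, 326, 248 and 259, in the same order of pools), Pglyrp1 (26.6, 43.5, 28.8 and 85.5) and Hp (0.815, 2.97, 4.90 and 2.70) peaked in 3 different pools.

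Further receptors that were named by abundance did not follow Cxcr2. Il1r2, a decoy receptor for interleukin 1, had 190 and 135 normalized CPM in females against 202 and 124 in males. Il1r2 was higher in pool 1 than in pool 2 of females, where Cxcr2 was lower, and likewise in males. C5ar1, the receptor for complement C5a, had 6.80 and 3.46 in females against 3.46 and 1.16 in males. Of the transcription factors, Gfi1 had 6.52 and 3.46 in females against 11.9 and 2.70 in males, Cebpa 6.80, 9.90, 2.51 and 9.24, and Cebpd 6.52, 24.2, 9.92 and 15.4. Cebpe, which encodes C/EBP epsilon, had 0 counts in all 4 pools, where up to 3 counts a pool are allowed, and so had the stefin gene BC100530. Ly6g and Spi1 were not analysed here.

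Some markers of other blood cells moved with the same pools, given here with TMM scaling. In bulk samples, fewer cells of a type and less RNA per cell cannot be told apart. Of 6 thymocyte genes, 3 were highest in male pool 1 and 3 in male pool 2, against 26.1% and 32.7% of genes tested. Their sum ran 278 and 259 normalized CPM in females against 571 and 305 in males. Lck, a kinase of T-cell receptor signalling and the most abundant of them, had 278 in male pool 1 and 124, 67.8 and 50.4 in female pools 1 and 2 and male pool 2. None of the 6 was at 0 in all pools. The part of thymocyte transcripts in the granule levels of male pool 1 was not tested.

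Of 8 monocyte and macrophage genes, 6 were highest in male pool 2, as both receptors were, against 32.7% of genes tested. By library size only, where that share was 16.2%, Csf1r and Cd68 were instead highest in female pool 2. They had 230 and 498 of 1976272 reads on genes there, against 311 and 716 of 3344471 in male pool 2. The sum of the 8 genes ran 2084 and 3227 normalized CPM in females against 1563 and 4469 in males. Its order over the pools, with male pool 1 lowest and male pool 2 highest, was that of Cxcr2. Lyz2, a lysozyme gene of macrophages and neutrophils and the most abundant of the list, reached 3327 in male pool 2. Dendritic cell genes summed to 1075 and 1157 in females against 884 and 1547 in males, with Bst2 the most abundant. Against 32.7% of genes tested, 4 of these 8 genes were highest in male pool 2. By library size only, Itgax and Xcr1 were instead highest in female pool 2. They had 156 and 224 reads there, against 243 and 350 in the deeper male pool 2. The part of monocyte, macrophage and dendritic cell genes in the receptor levels was not tested. Nor was that of the epithelial list, whose sum was 160 and 356 in females against 217 and 361 in males, with Krt8 the most abundant. B cell genes summed to 4294 and 2824 in females against 3527 and 2380 in males, with Cd79a the most abundant. They had their highest value in female pool 1 for 6 of 6 genes, against 2302 of the 10865 genes tested.

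**Figure D4:**
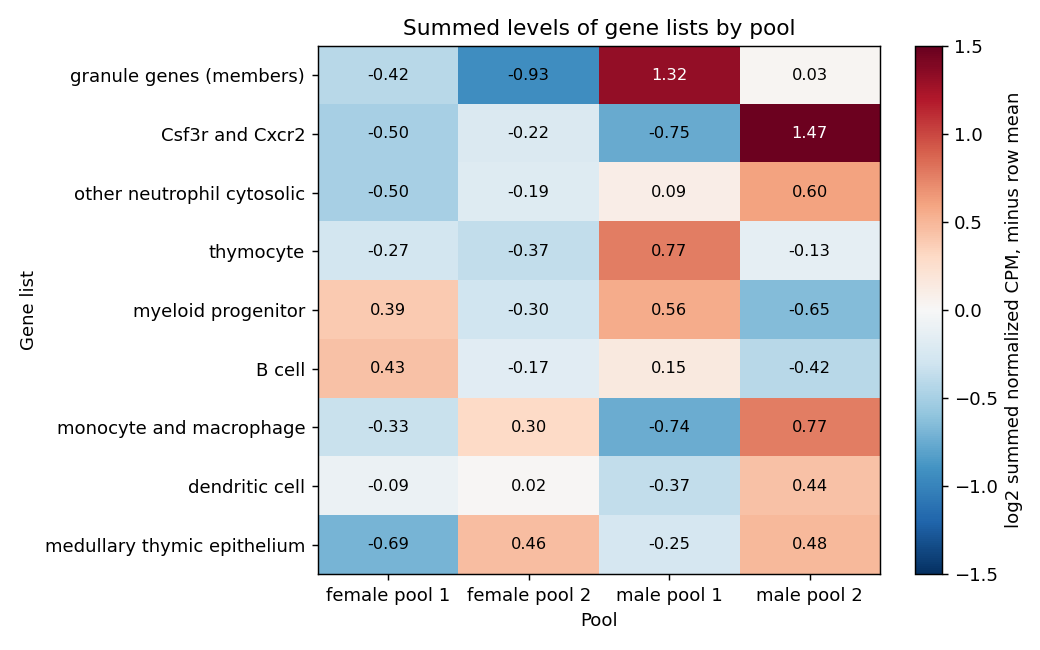
Summed normalized CPM of gene lists in each pool on the log2 scale, minus the mean of the row over the 4 pools (colour and printed value). Granule genes (1.32), thymocyte genes (0.77) and myeloid progenitor genes (0.56) were highest in male pool 1. The receptors (1.47), monocyte and macrophage genes (0.77), other neutrophil cytosolic genes (0.60) and dendritic cell genes (0.44) were highest in male pool 2. B cell genes (0.43) were highest in female pool 1. Medullary epithelial genes were nearly tied between male pool 2 (0.48) and female pool 2 (0.46), with 6 of 9 genes highest in female pool 2. These orders partly turned by library size only. The cytosolic genes were then highest in male pool 1 (2314 of 7103627 reads on genes, against 1019 of 3344471 in male pool 2). The epithelial genes were then highest in female pool 2 (720 of 1976272, against 938 of 3344471 in male pool 2).

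The genes with the most similar profiles were found by the root mean square difference of mean-centred log2 normalized CPM over the 4 pools, a description of 4 values each. Nearest to the summed 10 members lay Zfp488, Kndc1, Ptcra, Tmem223 and Zfp788, with differences of 0.117 to 0.177. The search was repeated, after the data were seen, for the summed granule genes and for Cxcr2. Camk4, Icos, Endou, Slc35d1 and 1190002N15Rik were nearest to the summed granule genes (0.127 to 0.236). BC033916, 2810454H06Rik, Tmsb4x, Agbl5 and Suv420h1 were nearest to Cxcr2 (0.033 to 0.062). Icos, an inducible costimulator of T cells, had 10.6 and 8.41 normalized CPM in females against 32.3 and 14.6 in males. Tmsb4x, which encodes thymosin beta 4, had 15016 and 16889 in females against 10501 and 55836 in males.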

How the data were processed

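RNA from sorted mTECs was sequenced in 2 female and 2 male pools (SMARTer Ultra Low libraries). The authors trimmed reads with Trimmomatic, aligned them to mm9 with TopHat2 and made the deposited raw counts per gene with HTSeq-count. Versions, annotation and strand setting are not given in the sources used here. Unassigned reads (66.9% to 70.2% of all rows) stayed out of library sizes and tests.

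Counts were tested with edgeR 4.0.16 in R 4.3.3 (quasi-likelihood, TMM, filterByExpr with a minimum count of 10, prior count 0.125, sex as the only term, two-sided, Benjamini-Hochberg at 0.05) across all genes, after a check on simulated data. TMM factors were 1.05, 1.03, 1.18 and 0.780. Standard errors are the log2 fold change over the square root of F. Exon lengths and gene positions came from GENCODE M1 on NCBIM37, and 0.5 counts per gene were added in ratios. Alternatives were upper-quartile or no composition scaling, DESeq2 1.42.0, 2 other filters, the exact test, a prior count of 2, pool number as a replicate block, other forms of the ratio, and each pool left out. The members and lists were chosen with earlier results of these data known. Named from the wider list were S100a8, S100a9 and the 3 most abundant genes per role, and from other lists the most abundant gene and any at 0, except for genes that are not reported here. Pools were separate groups of mice, so p-values measure the spread between pools.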

Additional observations from a re-analysis of the deposited data

How the results depend on the processing

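The count of members past an adjusted p of 0.05 was 0 with either other scaling, DESeq2, no filter, over 1 CPM in at least 2 pools, the exact test and the replicate block. It ran from 0 to 3 with a pool left out, and was above 0 only without male pool 1 (2 members) or male pool 2 (3 members). The log2 fold change of each of the 7 tested members kept its direction in all 8 other settings that kept every pool, with Ngp between 1.60 and 1.73, Camp between 1.89 and 2.06, Lcn2 between 1.96 and 2.20 and Cxcr2 between 0.70 (replicate block) and 1.17. With a pool left out, Ngp ran from 0.084 to 3.34, Csf3r from 0.14 to 1.28, Mpo from -0.87 to 0.23, Ltf from -0.13 to 1.64 and Cxcr2 from -0.46 to 1.88. The male minus female difference in the granule to receptor log2 ratio ran from -0.68 (without male pool 1) to 2.61 with a pool left out. It was -0.36 with the 2 primary granule genes only, and between 0.58 and 1.03 in the other forms tried, which include Csf3r or Cxcr2 as the only receptor, added after the data were seen. The cause was not tested.

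By library size only, added after the data were seen, 8 in place of 7 granule genes were highest in male pool 1, and 4 in place of 3 members had both male pools above both female pools.

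Pool numbers are shared by the sexes, but no source pairs the pools. Over genes, the pool 2 minus pool 1 difference in females had a correlation of 0.519 with that in males. Over the whole table, where the test of the report called 0 genes, 5 passed with library size only, 3 with DESeq2, 8 with the exact test, 26 with no filter and 17 with the replicate block. The block called 0 members, and the ratio difference is 0.96 with or without it by construction, since the design is balanced. Outside male pool 1, Elane, Mmp8 and Retnlg had at most 3 counts. Depth limits Mmp8, whose level in male pool 1 (1.43 normalized CPM) was near the limit of a count of 0 in the other pools (0.815 to 1.48).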

Other observations

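Genes of other granulocytes differed widely in level. The basophil and mast cell genes Mcpt8, Ms4a2 and Fcer1a, chosen after their values were seen, had at most 1 count in any pool. Cpa3, a mast cell protease also found in progenitors and likewise chosen after its values were seen, had 10 and 5 counts in female pools against 108 and 4 in male pools, so that, like Elane, it was concentrated in male pool 1. Prg2, the most abundant gene of the mast cell, basophil and eosinophil list, had 27.7 normalized CPM in each female pool and 19.1 and 42.7 in the male pools. The sum of that list was 31.0 and 31.7 in females and 33.0 and 45.4 in males.

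Few reads were assigned to erythroid genes, and the unassigned reads, 66.9% to 70.2% of all rows, cannot be traced to genes. Hba-a1, Hba-a2 and Hbb-b2 had 0 counts in all pools, and Alas2, the most abundant of the list, had at most 18 counts in a pool. The whole erythroid list summed to 6 and 4 counts in female pools against 25 and 5 in male pools. Of 5 myeloid progenitor genes, Kit was the most abundant, and their sum ran 95.7 and 59.4 normalized CPM in females and 108 and 46.6 in males, higher in pool 1 of both sexes. Myb was highest in male pool 1 at 52.9, with 25.6, 13.9 and 11.2 in female pools 1 and 2 and male pool 2.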
